A study of Rattus norvegicus with 20 samples.

Results

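The mitochondrial ribosomal proteins are the protein components of the mitoribosome, the ribosome inside mitochondria. The set described here holds every protein-coding gene in the deposited table whose symbol was Mrpl or Mrps followed by a number, which gave 71 genes of 30560 (23096 of them protein-coding). They carried 70 symbols, because Mrpl42 was listed at 2 loci. Of the 71, 44 belong to the large subunit, 26 to the small subunit, and 1 (Mrps36, a subunit of the 2-oxoglutarate dehydrogenase complex that was first named as a ribosomal protein) is not part of the mitoribosome. By the family name assigned to each from known structures, 41 were classed as having a bacterial homologue and 29 as specific to mitochondria. Mrps18a and Mrps18b fell in the second class, although they share the S18 family with Mrps18c, which fell in the first. The second class thus does not exclude kinship with a bacterial protein.

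The libraries were made from poly-A RNA of the heart (left ventricle) and the kidney (cortex) of 10 male hypertensive rats, labelled wild type, with no strain name in the labels. All of the rats received a telemeter at 8 weeks of age and a diet with 4% NaCl for 3 weeks. During these weeks a subcutaneous minipump delivered either Maresin 1 (MaR1, a lipid mediator made from docosahexaenoic acid that acts in the resolution of inflammation) at up to 1.3 µg/kg/day, or its vehicle. The 20 libraries form 4 groups of 5: hearts of MaR1 rats (RB035 to RB039), hearts of vehicle rats (RB030 to RB034), and the kidneys of these same rats. No group was without the high-salt diet.

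Mitochondria keep a small genome whose mRNAs all encode subunits of the respiratory chain and ATP synthase, and the mitoribosome translates these mRNAs and no others. Its ribosomal RNAs come from that genome, whereas its proteins are encoded in the nucleus, made in the cytosol and imported. The small subunit binds the mRNA and holds the decoding site. The large subunit joins amino acids and releases the chain next to the inner membrane, and heart muscle and the proximal tubule of the kidney are both rich in mitochondria.

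Between 19383232 and 30342034 fragments per library were assigned to genes. Defining markers matched both organs: summed cardiomyocyte markers were 15172 to 26865 FPKM (fragments per kilobase of gene model, scaled to library size) in hearts and 62.1 to 96.6 FPKM in kidneys, and summed proximal tubule markers were 266 to 430 FPKM in hearts and 7037 to 13607 FPKM in kidneys. Markers of neighbouring tissue also varied. The atrial gene Myl7 was above 100 FPKM in 5 of 10 hearts (RB035 and RB038 with MaR1, and RB031, RB033 and RB034 with vehicle), although the label is left ventricle. The urothelial gene Upk1a was above 1 FPKM in 4 of 10 kidneys (RB036, RB038 and RB039 with MaR1, and RB034 with vehicle).

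Of the 71 genes, 69 had a mean of at least 1 FPKM over the 20 libraries and entered the tests, each with 241 to 5078 fragments in every library. The 2 genes below this mean were not tested. Mrps17, a small-subunit protein, averaged 0.180 FPKM in hearts and 0.180 FPKM in kidneys, and its locus lay within an unnamed gene on the same strand that the table describes as mitochondrial S17 too. The second Mrpl42 locus, on chromosome 13 with a model of 426 bases, had reads in 3 hearts, all with MaR1, and in 1 kidney, and was listed at 0 in the other 16 libraries. No library held more than 2 fragments of this chromosome 13 locus, too few to compare groups. Reads could be split between the chromosome 13 locus and the Mrpl42 locus on chromosome 7, which is the one meant below. Outside the symbol rule, 25 loci were described as mitoribosomal proteins, and they were not counted among the 71.

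Levels spanned 15.5-fold in hearts and 13.1-fold in kidneys among the 69 genes, with group means of 7.96 to 124 FPKM in hearts and 5.08 to 66.5 FPKM in kidneys. The 5 genes with the highest mean over all 20 libraries belonged to the large subunit. Mrpl54 averaged 124 ± 13.7 FPKM in hearts and 66.5 ± 7.88 FPKM in kidneys (SD, n = 10 each). Mrpl12, whose human protein also binds the mitochondrial RNA polymerase, averaged 124 ± 23.9 FPKM in hearts and 55.04 ± 6.05 FPKM in kidneys. Mrpl54 and Mrpl12 did not differ beyond their spread in hearts. Mrpl17, Mrpl20 and Mrpl27 followed by that mean, at 107, 72.2 and 64.6 FPKM in hearts and 53.2, 44.3 and 46.5 FPKM in kidneys. The order differed by organ: Mrpl3 was above Mrpl20 in hearts, at 72.8 FPKM, and the small-subunit gene Mrps25 was above Mrpl27 and Mrpl20 in kidneys, at 48.5 FPKM.

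At the low end stood Mrps18c, Mrpl47 and Mrpl30, with 8.90, 8.72 and 7.96 FPKM in hearts and 7.16, 5.79 and 5.08 FPKM in kidneys. These 3 have longer models than the highest 5, at 2496, 5137 and 3345 bases. The 3 paralogues of the S18 family stood at different levels. Mrps18b averaged 55.9 ± 8.89 FPKM in hearts and 37.2 ± 4.15 FPKM in kidneys, and Mrps18a, which sits in the large subunit despite its name, 27.0 ± 4.40 and 25.5 ± 2.79 FPKM in the same order of organs (SD, n = 10 each). The coefficient of variation over the 10 libraries of an organ had a median of 14.5% in hearts and 11.1% in kidneys over the 69 genes.

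Promoter sequence was available for 55 of the 70 symbols, as 57 RefSeq windows (build GRCr8) running from 250 bases before to 50 bases after each start. Nuclear genes of mitochondrial proteins are known for sites of NRF1, of ETS factors such as GABP, and of YY1, so exact matches to 1 short motif each were counted on both strands. The NRF1 motif GCGCATGCG was in 8.77% of the 57 windows and in 1.93% of 21851 windows of protein-coding genes, and its shorter core GCATGCG, which lies within it, in 10.5% and 3.99%. The ETS motif CCGGAAG was in 31.6% and 10.7% of these windows, and the YY1 motif AAGATGGC in 24.6% and 3.67%. Of 14 YY1 matches, 10 lay after the start and 12 on the strand of the gene. The CCAAT box was in 45.6% and 38.0%, and the SP1 motif GGGCGG in 49.1% and 41.8%. A match is a string of letters, not a shown binding site.

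The stretches below run from 150 bases before to 30 bases after the RefSeq start, 5′ to 3′ on the strand of the gene. The first 4 are examples from the 29 genes with an NRF1, ETS or YY1 match, and do not mirror how often each motif occurred. The last 2 belong to the genes with the largest positive and negative differences between heart and kidney. Capitals mark matches to the NRF1 motif or its core, or to the ETS or YY1 motif, on either strand. Capitals and labels cover only matches that lie wholly within the printed stretch. The windows of Mrps18b and Mrpl32 also hold a YY1 match each, with first bases at 29 and -220 from the start. Coordinates of the stretches are those of GRCr8. This need not be the build behind the coordinates of the deposited table, since no source used here names that one.
Mrpl17 (chr1:169575670-169575849, minus strand, NRF1): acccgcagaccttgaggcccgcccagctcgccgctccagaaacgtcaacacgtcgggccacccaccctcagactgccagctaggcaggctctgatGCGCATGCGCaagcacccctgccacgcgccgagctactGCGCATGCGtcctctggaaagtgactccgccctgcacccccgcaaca
Mrpl32 (chr17:55260501-55260680, plus strand, NRF1): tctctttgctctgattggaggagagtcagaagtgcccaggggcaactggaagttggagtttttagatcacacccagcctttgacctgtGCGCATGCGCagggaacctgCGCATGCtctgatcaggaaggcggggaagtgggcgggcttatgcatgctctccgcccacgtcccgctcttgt
Mrps18b (chr20:2842856-2843035, plus strand, NRF1 and ETS): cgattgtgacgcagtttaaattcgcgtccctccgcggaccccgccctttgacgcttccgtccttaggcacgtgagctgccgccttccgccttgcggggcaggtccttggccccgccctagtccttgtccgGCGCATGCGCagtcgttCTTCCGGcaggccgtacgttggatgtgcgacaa
Mrpl42 (chr7:32028493-32028672, minus strand, YY1): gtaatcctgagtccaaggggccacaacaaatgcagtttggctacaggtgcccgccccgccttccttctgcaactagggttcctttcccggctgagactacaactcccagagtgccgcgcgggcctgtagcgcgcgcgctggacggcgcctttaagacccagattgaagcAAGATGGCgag
Mrps15 (chr5:143605991-143606170, plus strand, no match): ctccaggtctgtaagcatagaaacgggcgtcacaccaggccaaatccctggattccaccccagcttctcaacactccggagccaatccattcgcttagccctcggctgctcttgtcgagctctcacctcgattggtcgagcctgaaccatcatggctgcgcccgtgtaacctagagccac
Mrps25 (chr4:126237183-126237362, minus strand, no match): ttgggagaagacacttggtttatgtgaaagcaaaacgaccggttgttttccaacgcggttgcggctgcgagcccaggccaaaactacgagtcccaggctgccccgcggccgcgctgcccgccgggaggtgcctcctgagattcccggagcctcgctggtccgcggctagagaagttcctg

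Heart was compared with kidney first, over 10 libraries of each organ and both treatments, to ask whether the set differed between organs. On the deposited scale, 55 of the 69 tested genes were higher in heart (41% of all 12984 genes tested), 5 were lower (43.6% of all) and 9 did not pass an adjusted p of 0.05, by limma with Benjamini-Hochberg adjustment over all genes. The median log2 fold change of the 69 was 0.58, a ratio of 1.49, against -0.02 over all genes. Every heart lay above every kidney for 36 genes (27.1% of all) and below it for 0 (29.8%).

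How many genes rose depended on the scaling of the libraries. Mitochondrially encoded mRNAs took 41.5% to 53.5% of the summed FPKM in hearts and 24.6% to 31.6% in kidneys, so a fixed total leaves less for nuclear genes in heart. With every library set to the same total FPKM, 26 of the 69 were higher in heart and 29 lower, with a median of -0.04. Scaled to the assigned fragments, 41 were higher and 15 lower, with a median of 0.23. Under each of 5 scalings the median of the 69 lay 0.58 to 0.60 above the median of all genes, on the log2 scale. Apart from quantile normalization, these scalings multiply each library by a single factor, which moves all its genes nearly alike. Agreement between them was thus largely fixed in advance and is no separate evidence. In all 5 scalings 26 genes were higher in heart (21.4% of all genes) and 5 were lower (40.4%), and each gene named as higher or lower in the next 3 paragraphs, unless a scaling is given beside it, belongs to these.

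**Figure D1:**
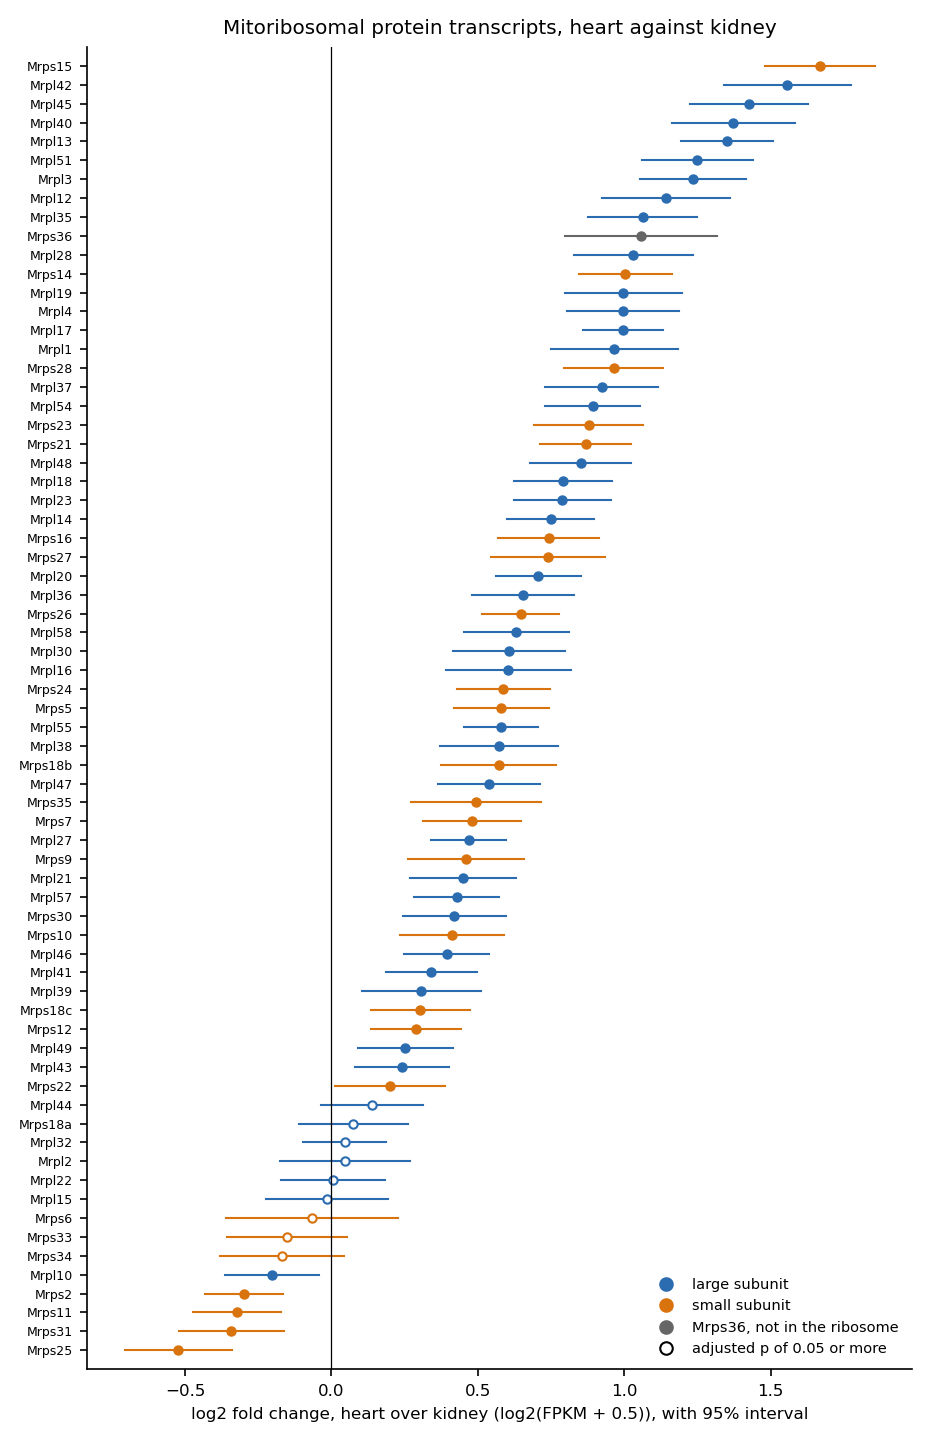
Log2 fold change of heart over kidney, on log2(FPKM + 0.5), with its 95% interval from limma for each of the 69 tested genes (10 libraries per organ); filled points passed an adjusted p of 0.05. Of these, 55 points lie to the right of 0 and 5 to the left, with Mrps15 at 1.67 and Mrps25 at -0.52 as the ends; with all libraries set to the same total FPKM the counts are 26 and 29.

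The genes with the largest positive differences came from both subunits. Mrps15, the counterpart of a bacterial small-subunit protein that binds the ribosomal RNA early in assembly, had a lowest, median and highest value of 34.5, 47.1 and 56.3 FPKM in hearts, against 11.5, 14.6 and 15.6 FPKM in kidneys. All hearts lay above all kidneys, and the log2 fold change was 1.67 ± 0.09 (SE; limma adjusted p = 4.7e-13). Mrpl42 on chromosome 7 (30117977 to 30141639, minus strand, in the coordinates of the deposited table), a large-subunit protein with no bacterial counterpart, had 29.7, 36.5 and 47.2 FPKM in hearts and 9.04, 12.6 and 14.8 FPKM in kidneys. Its log2 fold change was 1.56 ± 0.10. Mrpl45, which lies at the tunnel exit near the inner membrane, had 20.7, 33.3 and 40.5 FPKM in hearts and 10.2, 11.3 and 12.7 FPKM in kidneys, a log2 fold change of 1.43 ± 0.10.

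Large-subunit genes made up most of the rest of this end. Mrpl40, Mrpl13, Mrpl51, Mrpl3, Mrpl12 and Mrpl35 had log2 fold changes of 1.37, 1.35, 1.25, 1.24, 1.14 and 1.06, each with heart and kidney libraries that did not overlap. Mrpl12 ran from 82.1 to 157 FPKM in hearts and from 42.6 to 64.2 FPKM in kidneys. Mrps36, the gene outside the mitoribosome, averaged 64.3 ± 14.4 FPKM in hearts and 30.2 ± 4.65 FPKM in kidneys (SD, n = 10 each), a log2 fold change of 1.06 ± 0.12. Mrpl17, whose promoter is printed above with NRF1 matches, had a log2 fold change of 0.99.

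The 5 genes lower in heart included 4 of the small subunit. Mrps25, which has no bacterial counterpart, had a lowest, median and highest value of 23.8, 33.2 and 41.8 FPKM in hearts, against 39.9, 49.1 and 57.1 FPKM in kidneys. Only the highest heart, RB039, lay above the lowest kidney, RB030, and the log2 fold change was -0.52 ± 0.09 (SE; limma adjusted p = 1.6e-05). Mrps31 averaged 10.5 FPKM in hearts and 13.4 FPKM in kidneys, Mrps11 14.6 and 18.3 FPKM, and Mrps2 13.2 and 16.3 FPKM in the same order of organs, with log2 fold changes of -0.34, -0.32 and -0.30. Mrps11 and Mrpl46 overlap on opposite strands over 9028 bases of chromosome 1, and Mrpl46 was higher in heart on the deposited scale, at 0.39. Mrpl10, of the large subunit, differed least at -0.20, and without the 5 hearts rich in Myl7 its value was -0.07 with a limma adjusted p of 0.45.

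The smallest difference in heart that still passed was that of Mrps22, at 0.20 with a limma adjusted p of 0.044, and it turned to -0.42 with the same total FPKM. Mrpl43 and Mrpl49 had 0.24 and 0.25 on the deposited scale and -0.39 and -0.37 with the same total. Mrpl15, Mrpl22 and Mrpl2 lay nearest to 0, at -0.02, 0.00 and 0.04, with 95% intervals of -0.22 to 0.19, -0.17 to 0.18 and -0.18 to 0.27. Mrps34, Mrps33, Mrps6, Mrpl32, Mrps18a and Mrpl44 also did not pass on this scale.

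Among the other members with known special roles, Mrpl58, the large-subunit protein that can release chains from stalled ribosomes, had a log2 fold change of 0.63 on the deposited scale. Mrpl36 and Mrps24 had 0.65 and 0.59, and Mrps30, a large-subunit protein in spite of its name, had 0.42. The decoding-site protein Mrps12 had 0.29 and Mrps18b, Mrps18c and Mrps18a had 0.57, 0.30 and 0.08. With the same total FPKM these last 4, Mrps24 and Mrps30 all took negative values, from -0.55 for Mrps18a to -0.04 for Mrps24.

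By subunit, on the deposited scale, 36 of 43 tested large-subunit genes were higher in heart and 1 lower. Of 25 small-subunit genes, 18 were higher and 4 lower, where 41% of all genes were higher and 43.6% lower. In all 5 scalings, 19 large-subunit genes were higher and 1 lower, against 6 and 4 of the small subunit (21.4% and 40.4% of all genes). The median log2 fold changes of the large and small subunit were 0.63 and 0.48 on the deposited scale, and 0.02 and -0.14 with the same total FPKM. Genes classed as having a bacterial homologue had a median of 0.61 and those classed as mitochondria-specific one of 0.46, on the deposited scale. On that scale, the 10 small-subunit genes classed as mitochondria-specific had the lowest median of the 4 combinations, 0.35, with 6 higher and 2 lower. These are descriptions of the 69 genes, and no test was run between the classes.

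The summed FPKM of the large subunit divided by that of the small subunit is free of library scaling. This ratio was 2.14 to 2.24 in hearts and 1.72 to 1.84 in kidneys, so the organs did not overlap. Without the 3 highest genes (Mrpl54, Mrpl12 and Mrpl17) the ratio was 1.66 to 1.75 in hearts and 1.39 to 1.52 in kidneys. The ratio of the median gene of each subunit, in contrast, overlapped between organs, at 0.98 to 1.12 in hearts and 1.02 to 1.14 in kidneys.

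**Figure D2:**
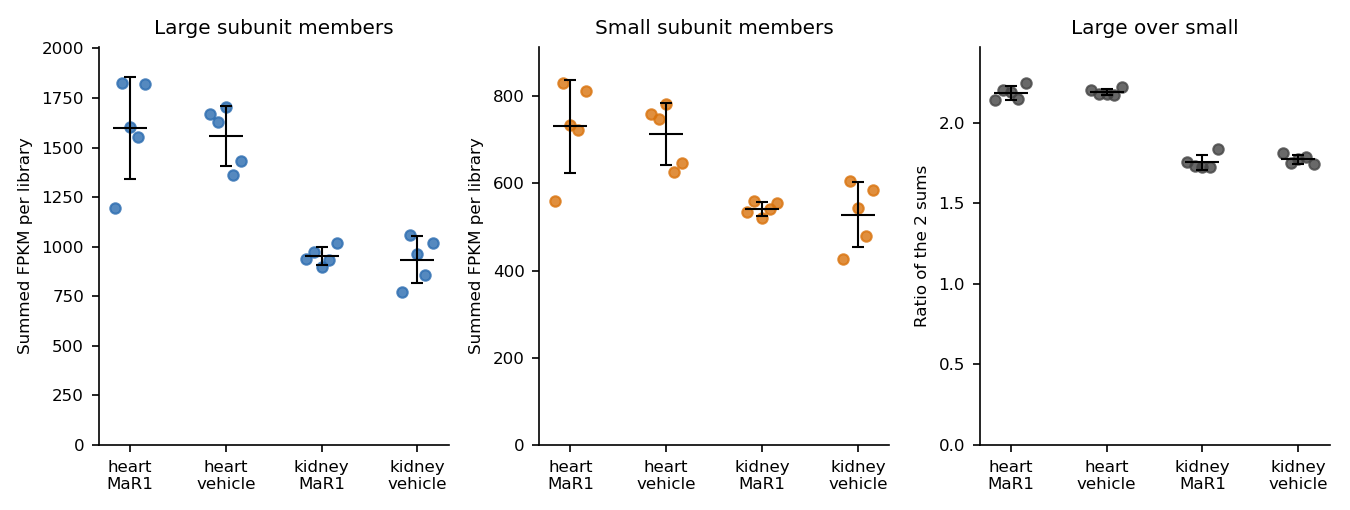
Summed FPKM per library of the 44 large-subunit and 26 small-subunit genes, and the ratio of the 2 sums. Points are libraries, bars the mean and SD of each group (n = 5). The ratio is 2.14 to 2.24 in the 10 hearts and 1.72 to 1.84 in the 10 kidneys, and MaR1 and vehicle groups overlap in every panel.

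Within single rats, the median of heart minus kidney over the 69 genes, on log2(FPKM + 0.5), was positive in 10 of 10 as deposited and scaled to the assigned fragments, but in 5 of 10 with the same total FPKM. As deposited, in MaR1 rats RB035 to RB039 it was 0.25, 0.76, 0.66, 0.56 and 0.68, and in vehicle rats RB030 to RB034 it was 0.90, 0.44, 0.72, 0.55 and 0.37. The lowest and the highest rat each rest on 1 library that stood low. The summed FPKM of the set was 1801 in the heart of RB035, the lowest of 10 hearts, and 1220 in the kidney of RB030, the lowest of 10 kidneys.

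Markers of the main cell type moved with these sums. The hearts of RB035, RB033 and RB034 had the 3 lowest sums of the set, 1801, 2039 and 2135 FPKM, and summed cardiomyocyte markers of 15172, 16638 and 20161 FPKM, also the lowest 3 of the hearts; all of them were rich in Myl7. The kidney of RB030 had the lowest summed proximal tubule markers, 7037 FPKM, against 9926 to 13607 FPKM in the others. In bulk tissue, fewer cells of a type and less RNA per cell cannot be told apart, and the part of these markers in the result was not tested. Both sums are on the deposited scale, so the scaling of a library moves them together. The FPKM denominator was 1.28 times the assigned fragments in the kidney of RB030, the highest of the kidneys. It was 0.971, 0.983 and 0.908 times in the hearts of RB035, RB033 and RB034, against 0.812 to 0.966 in the other hearts. The part of this scaling in the low sums was not tested. On the deposited scale and without the 5 hearts rich in Myl7, 57 of the 69 genes were higher in heart and 4 lower, with a median of 0.69. Without the 4 kidneys with Upk1a above 1 FPKM, 54 were higher and 4 lower, with a median of 0.62. Values over all genes are not given for these fits, so a shift of the set alone cannot be told from one of all genes.

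The mRNAs that the mitoribosome translates also differed. All 13 mitochondrially encoded mRNAs were higher in heart, with a median log2 fold change of 1.40 (1.16 to 1.64) on the deposited scale, above the 0.58 of the mitoribosomal proteins. Mt-co1, a catalytic subunit of cytochrome oxidase, averaged 77634 FPKM in hearts and 29207 FPKM in kidneys. The poly-A selection of the libraries bears on how fully such mRNAs are sampled, and how much it did here was not tested.

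Other genes of mitochondrial translation are given on the deposited scale, where 41% of all genes were higher in heart and 43.6% lower. Of 17 tested translation factors, 12 were higher in heart and 3 lower, with a median of 0.42. The initiation factor Mtif2 had a log2 fold change of 1.08 ± 0.09 (SE), Slirp, which binds mitochondrial mRNAs together with Lrpprc, 0.78 ± 0.07, and the elongation factor Tufm 0.68 ± 0.10. Of 18 mitochondrial aminoacyl-tRNA synthetases and related enzymes, 6 were higher and 6 lower, with a median of 0.08; Qrsl1, of the enzyme that makes glutaminyl-tRNA, had 1.20, whereas Mars2 and Rars2, for methionine and arginine, had -1.27 and -0.97.

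Factors that assemble the mitoribosome or modify its RNA had 10 of 24 higher and 8 lower, with a median of 0.12. Mpv17l2, Mterf3 and Dhx30, each of which takes part in its assembly, had log2 fold changes of -1.01, -0.74 and -0.58. Among genes that keep and transcribe mitochondrial DNA, 5 of 9 were higher and 2 lower: Tfam, which packages that DNA, had 0.45, and the polymerase subunits Polg and Polg2 had -0.38 and -0.87. Of 5 tested mitoribosomal proteins with other names, 3 were higher and 1 lower, with Chchd1 at 0.98, Dap3 at 0.75 and Gadd45gip1 at 0.30.

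Regulators of nuclear genes for mitochondrial proteins include those that bind the motifs printed above (Nrf1, Gabpa with Gabpb1, and Yy1) and coactivators and others that do not. Of 10 tested, 5 were higher in heart and 3 lower on the deposited scale, with a median of 0.21. On that scale 41% of all genes were higher and 43.6% lower. Perm1, a muscle regulator of oxidative genes, averaged 47.2 FPKM in hearts and 0.193 FPKM in kidneys, a log2 fold change of 6.08. Of those that bind the motifs, Nrf1 had 0.00, Gabpa 0.21, Gabpb1 0.27 and Yy1 -0.34, and of the others Ppargc1a had -0.77 and Myc -1.23. The genes with an NRF1 match had a median log2 fold change of 0.14 (5 tested) against 0.63 without one (49 tested); for the ETS motif the medians were 0.64 and 0.56, and for YY1 0.45 and 0.64, given as a description.

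**Figure D3:**
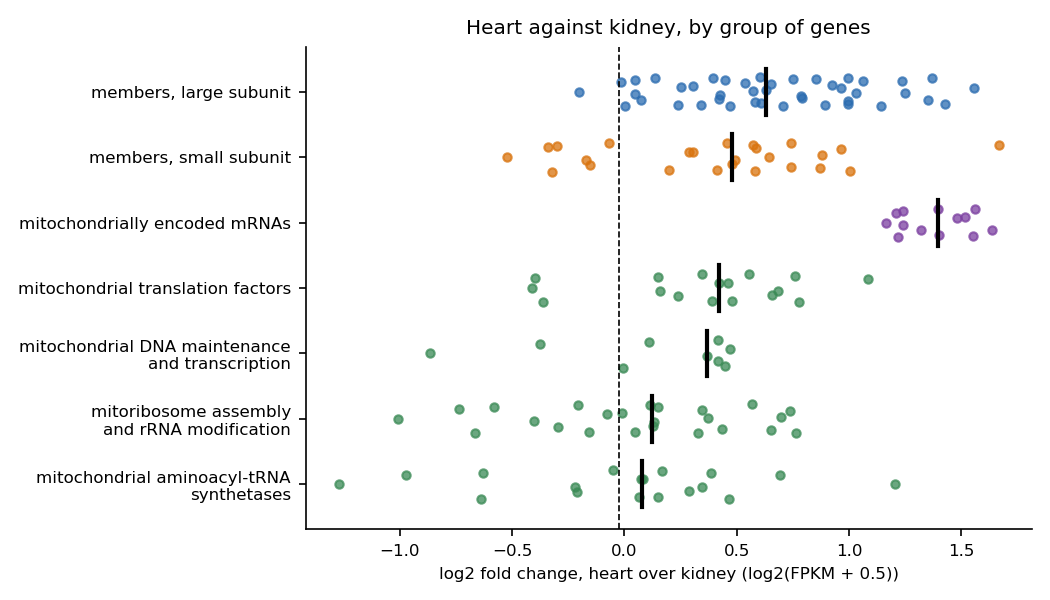
Log2 fold change of heart over kidney, on log2(FPKM + 0.5), for the tested genes of each group (points), with the group median (bar) and the median of all 12984 genes (dashed line, -0.02). Medians are 0.63 and 0.48 for the large- and small-subunit genes, 1.40 for the 13 mitochondrially encoded mRNAs, and 0.42, 0.37, 0.12 and 0.08 for the groups under them.

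Many of the 71 genes sit close to another gene. A protein-coding gene on the opposite strand started within 1000 bases for 24 of them (33.8%), against 8.54% of all protein-coding genes. Several of these partners have mitochondrial roles themselves: Mrpl43 faced Twnk (the mitochondrial DNA helicase), Mrps12 faced Sars2 (the mitochondrial seryl-tRNA synthetase), Mrpl35 faced Immt (a shaper of the cristae), and Mrpl47 faced Ndufb5 (a complex I subunit). On the deposited scale, the 20 tested partners had a median log2 fold change of 0.05 between heart and kidney, against 0.44 for the members facing them. Of these partners, 9 were higher in heart and 8 lower, where 41% of all genes were higher and 43.6% lower.

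On the deposited scale, facing genes could move apart or together. Mrpl40 was 1.37 in heart over kidney and its partner Hira, a histone chaperone, -0.38; Mrpl2 was 0.04 and Klc4, a kinesin light chain, -1.50. Mrpl47 and Ndufb5 were both higher in heart, at 0.54 and 2.05, as were Mrps12 and Sars2, at 0.29 and 0.35. Models of 28 of the 71 genes overlap another gene, 24 of them one on the other strand and 6 one on the same strand, and the labels do not state whether strand was used in counting, so fragments in shared stretches cannot be assigned with certainty.

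Of the 25 loci described as mitoribosomal proteins outside the symbol rule, 8 were tested between heart and kidney. On the deposited scale 7 were higher in heart and 1 lower, where 41% of all genes were higher and 43.6% lower. Values of these loci in the other scalings are not given. The genes written mrpl9, mrpl11 and mrpl24 in lower case were higher in heart, at 0.31, 0.33 and 0.76, as were unnamed loci described as L33, L34 and L50, at 1.20, 0.68 and 0.37, and Dap3, given above. Mrpl52, listed as a long non-coding RNA, was lower at -0.44 ± 0.07 (SE; limma adjusted p = 1.3e-05).

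MaR1 was then compared with vehicle in the kidney, over 5 rats each, to ask whether treatment changed these transcripts. None of the 69 genes passed an adjusted p of 0.05 by limma, and none of the 12446 genes tested did (0%); limma voom on fragments recovered from the FPKM also called 0 of the 69. At an unadjusted p under 0.05 there was 1 of the 69 (6.75% of all genes), and for none were all MaR1 kidneys above or below all vehicle kidneys (1.23% of all). The log2 fold changes ran from -0.09 to 0.58 with a median of 0.03, against 0.00 over all genes, and apart from Mrps6 no upper 95% bound exceeded 0.43. Positive values stood in 55 of 69 genes, against 6227 of the 12446 tested. Without RB030, whose vehicle kidney was lowest in 60 of the 69, positive values stood in 16 and the median was -0.04. Values over all genes are not given for the fit without RB030.

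Mrps6 was the 1 gene at an unadjusted p under 0.05 in kidney. It had 23.22, 22.04, 37.04, 34.97 and 13.76 FPKM in the MaR1 kidneys of RB035 to RB039, against 15.28, 22.01, 16.89, 12.51 and 16.68 FPKM in the vehicle kidneys of RB030 to RB034. RB037 and RB038 were above every vehicle kidney by a wide margin, RB035 was just above the highest of them, RB036 nearly equal to it, and RB039 was within the range of the vehicle kidneys. The log2 fold change was 0.58 ± 0.25 (SE; limma adjusted p = 0.72), and leaving out a single rat gave 0.43 to 0.78.

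The kidneys high in Mrps6 were also high in several other genes. Slc5a3, the myo-inositol transporter that responds to hypertonicity, shares 23270 bases of chromosome 11 with Mrps6 on the same strand. Kcne2, a potassium channel subunit, spans all 52871 bases of Mrps6 on that strand, and had 0.0509 to 0.150 FPKM in MaR1 kidneys and 0.0632 to 0.230 FPKM in vehicle kidneys, without the high values of RB037 and RB038 together. Slc5a3 had 2.42, 2.19, 3.84, 4.24 and 1.09 FPKM in MaR1 kidneys RB035 to RB039 and 1.84, 1.29, 1.12, 1.40 and 1.20 FPKM in vehicle kidneys RB030 to RB034. Slc4a11, a marker of the inner medulla and thin limb, had 2.75, 1.52, 4.62, 2.83 and 0.982 FPKM in MaR1 kidneys, against 0.932, 0.896, 0.696, 0.811 and 0.874 FPKM in vehicle kidneys.

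RB037 and RB038 were thus among the highest for all 3 genes, and RB039 was the lowest MaR1 kidney for each. Fst, of the same marker list, had 7.82, 5.68, 16.7, 11.9 and 0.757 FPKM in MaR1 kidneys and 1.19, 1.81, 0.445, 1.39 and 1.99 FPKM in vehicle kidneys. The summed list of 8 markers was 135 to 296 FPKM with MaR1 and 94.0 to 155 FPKM with vehicle, with positive log2 fold changes in 7 of 7 tested, none passing an adjusted p of 0.05 by limma and 6 at an unadjusted p under 0.05. Urothelium markers summed to 79.8 to 198 FPKM with MaR1 and 80.7 to 95.6 FPKM with vehicle, and adipocyte markers to 75.8 to 827 FPKM with MaR1 and 70.3 to 80.6 FPKM with vehicle. The highest value of both lists was that of RB039, the MaR1 kidney lowest in Mrps6. The next highest kidneys were RB038 at 116 FPKM for urothelium markers and RB036 at 143 FPKM for adipocyte markers. The part of these markers in the Mrps6 values was not tested.

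**Figure D4:**
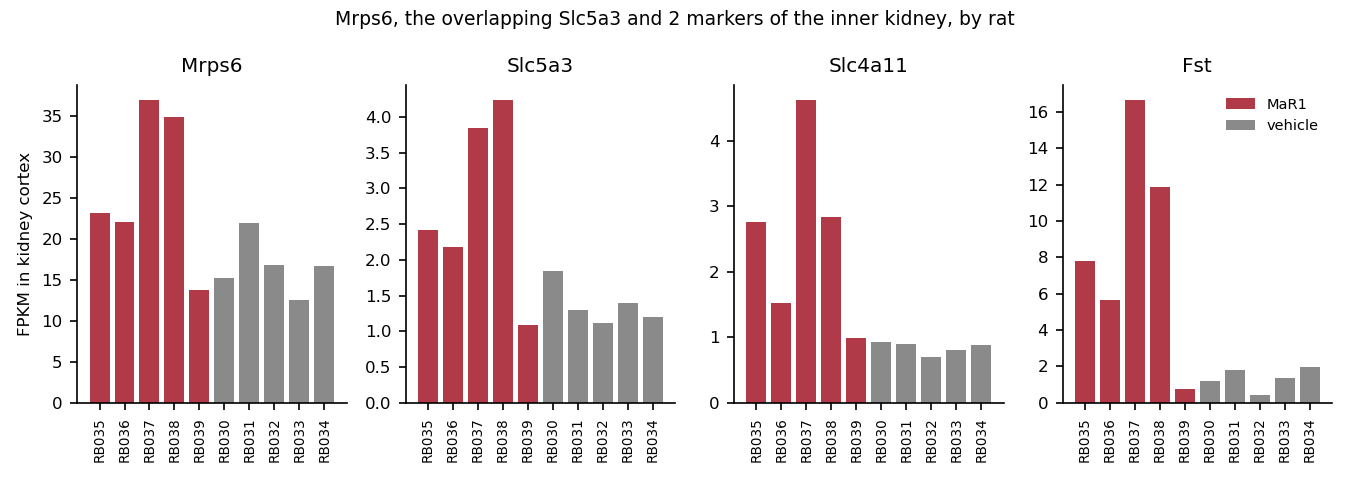
FPKM of Mrps6, of Slc5a3, which overlaps it, and of Slc4a11 and Fst in each kidney; bars are single libraries, MaR1 rats on the left and vehicle rats on the right of each panel. RB037 and RB038 hold the highest bars for all 4 genes, and RB039 is the lowest MaR1 kidney for each.

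The other genes nearest to a change in kidney were Mrpl35, Mrpl47, Mrps5, Mrps14 and Mrpl20. Their log2 fold changes were 0.14, 0.12, 0.11, 0.12 and 0.15, each with an adjusted p of at least 0.807 by limma. Mrpl35, for example, had 8.43, 8.60, 7.59, 8.78 and 8.74 FPKM in MaR1 kidneys and 6.09, 7.95, 7.99, 7.34 and 8.73 FPKM in vehicle kidneys. The groups overlapped, and the lowest value again was that of RB030.

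In the heart, MaR1 was likewise compared with vehicle over 5 rats each. None of the 69 genes passed an adjusted p of 0.05 by limma, nor did any of the 12237 tested (0%), and voom called 0 of the 69 as well. There was no member at an unadjusted p under 0.05 (4.6% of all genes), and none without overlap of the groups (0.842% of all). The log2 fold changes ran from -0.21 to 0.20 with a median of 0.02, against 0.01 over all genes, and 95% intervals stayed within -0.44 to 0.55. Summed atrial markers were 387 to 5487 FPKM in MaR1 hearts and 509.8 to 10122 FPKM in vehicle hearts. Summed proximal tubule markers, low in heart, were 352 to 430 FPKM in MaR1 hearts and 266 to 323 FPKM in vehicle hearts and did not overlap, with positive log2 fold changes in 8 of 8 tested, 5 at an unadjusted p under 0.05 and none passing by limma. The part of either marker list in these values was not tested. The heart of RB035 was the lowest of the MaR1 hearts for all 69 genes. Without that rat 66 of 69 genes had positive values with a median of 0.11, and 7 had an unadjusted p under 0.05, but none passed the adjusted threshold by limma. Positive values stood in 46 of the 69 with all rats, against 6637 of the 12237 tested. They stood in 21 of the 69 without RB036 or without RB039, and in 24 without RB033. Values over all genes are not given for the fits that leave out a rat. A shift of the set alone thus cannot be told from one of all genes in those fits.

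Mrpl32, whose protein must be cleaved by an inner-membrane protease in yeast and mouse before it joins the ribosome, was nearest to a change in heart. It had 16.5, 21.2, 20.2, 21.2 and 21.0 FPKM in MaR1 hearts RB035 to RB039, against 21.2, 26.1, 25.4, 20.4 and 22.8 FPKM in vehicle hearts RB030 to RB034. The groups overlapped at 20.4 to 21.2 FPKM, and the log2 fold change was -0.21 ± 0.09 (SE; limma adjusted p = 1.0). Mrps26, Mrps11, Mrpl14, Mrpl2 and Mrps2 followed, at 0.17, 0.18, 0.17, 0.20 and 0.11, and none passed.

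**Figure D5:**
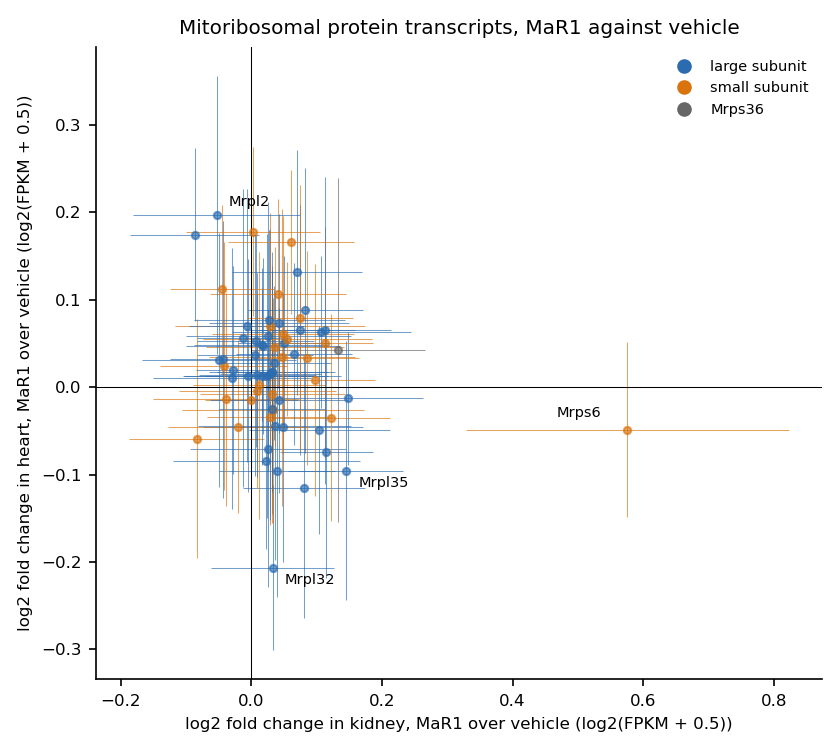
Log2 fold change of MaR1 over vehicle in kidney (horizontal) and in heart (vertical), on log2(FPKM + 0.5), for each of the 69 tested genes, with standard errors (5 rats per group). In kidney all genes but Mrps6 (0.58) lie between -0.09 and 0.15, in heart all lie between -0.21 and 0.20, and none passed an adjusted p of 0.05.

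The difference between the responses, heart minus kidney, was tested as an interaction over the 20 libraries. None of the 69 genes passed an adjusted p of 0.05 by limma, and none of the 12984 tested did (0%). Only Mrps6 had an unadjusted p under 0.05 (5.5% of all genes), with -0.62 ± 0.28 (SE; limma adjusted p = 0.88). Mrpl14 and Mrpl32 came next at 0.26 and -0.24. Hearts held Mrps6 at 16.2 to 21.9 FPKM with MaR1 and 17.7 to 23.1 FPKM with vehicle.

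The related lists were equally without a call in either organ. The 13 mitochondrially encoded mRNAs had a median log2 fold change of 0.02 for MaR1 over vehicle in kidney and -0.05 in heart. Translation factors had medians of 0.01 in kidney and 0.01 in heart, and assembly factors 0.00 and 0.02. Smallest in p were the mitoribosomal protein Ptcd3 in kidney, at -0.28, and the DNA polymerase subunit Polg in heart, at 0.12, with limma adjusted p of 0.75 and 1.0.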

How the data were processed

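Poly-A RNA-seq of 10 hearts and 10 kidneys was deposited as FPKM by the authors, who used fastp, HISAT2 2.0.5, StringTie 1.3.3b and featureCounts 1.5.0-p3, per the submitters' processing notes; the genome build and the use of strand are not given in the sources used here. FPKM times gene length was a whole multiple of 1 fragment for 100% of values (tolerance 0.01), and the FPKM denominators were 0.812 to 0.983 of the assigned fragments in hearts and 1.05 to 1.28 in kidneys, so the deposited FPKM carry a library scaling that no source describes. Values were tested as log2(FPKM + 0.5), with genes at a mean of at least 1 FPKM, by limma 3.58.1 (R 4.3.3, trend on the mean) with Benjamini-Hochberg adjustment over all genes and a threshold of 0.05. The organ and interaction fits used all 20 libraries, and each treatment fit its own organ. Fold changes on this scale understate those of low genes. Heart and kidney of a rat share an animal, per the labels; the consensus correlation was 0.0621, and the fit without the block is given. Named genes are the 5 highest and 5 lowest by level, the 10 largest and 8 smallest called organ differences with the 3 nearest 0, the 6 smallest p per treatment test, the 3 smallest for the interaction, 10 fixed genes, and the smallest p of each other list; other genes are described beside them after their values were seen. Members, lists and tests were chosen with earlier results of these data known. The test was checked on simulated data. Alternatives were other pseudocounts, filters, scalings, limma's voom on recovered fragments (54 of the 69 higher in heart, 5 lower), the replicate block, and leaving out rats or libraries. Intervals cover the spread between these animals. Tables and figures used pandas 2.3.3 and matplotlib 3.10.9 (Python 3.11.15).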

Additional observations from a re-analysis of the deposited data

Results flagged for a closer look

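Of 188 groups of 5 libraries checked, 7 had a highest or lowest value far from the other 4, where chance gives about 1 in 20. The heart of RB035 (MaR1) was low for 3 genes: Mrpl32 was 16.5 FPKM against 20.2 to 21.2 in the other MaR1 hearts, Mrpl43 31.7 against 47.4 to 49.9, and Mrps18b 37.9 against 57.2 to 64.3. Mrps26 was 36.1 FPKM in the vehicle heart of RB031, against 40.8 to 42.6 in the other vehicle hearts. Mrps12 was 30.8 FPKM in the MaR1 kidney of RB036, against 27.0 to 28.1. The ratio of large- to small-subunit sums was 1.84 in the MaR1 kidney of RB039, against 1.72 to 1.75. The chromosome 13 copy of Mrpl42, which held at most 2 fragments in any library, was 0.0752 FPKM in the vehicle kidney of RB031 and listed at 0 in the other 4.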

How the results depend on the processing

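Of 202 recomputed counts and medians of the comparisons, 196 stayed within 1.5 times (counts) or 1 SD between rats (medians; 0.197 between organs, 0.161 for MaR1 in kidney, 0.235 in heart), and the other 6 came from scaling. With the same total FPKM, 26 genes were higher in heart and 29 lower, with a median of -0.037; with the same total of nuclear protein-coding genes, 51 and 9; scaled to the assigned fragments, a scaling chosen after seeing the data, 41 and 15, with a median of 0.23. All genes shifted too, their median being -0.02 as deposited and -0.62, -0.18 and -0.36 in these scalings, and the share of higher among all calls was 48.5% as deposited and 24.2%, 41.0% and 33.0%. Of the 69 genes, 28 turned sign with the same total, 12 when scaled to the assigned fragments and 5 with the nuclear total. Among the genes named by size of the organ difference or by role, they included, with the same total, Mrps22 (-0.42), Mrpl43 (-0.39), Mrpl49 (-0.37), Mrpl22 (-0.62), Mrpl2 (-0.58), Mrps12 (-0.34), Mrps18a (-0.55), Mrps18b (-0.059), Mrps18c (-0.30), Mrps30 (-0.21) and Mrps24 (-0.042); scaled to the assigned fragments, Mrps22 (-0.15), Mrpl43 (-0.12), Mrpl49 (-0.10), Mrpl22 (-0.35), Mrpl2 (-0.31), Mrps12 (-0.065), Mrps18a (-0.28) and Mrps18c (-0.035); and with the nuclear total, Mrpl22 (-0.15), Mrpl2 (-0.11) and Mrps18a (-0.081). The 3 genes nearest 0 turned elsewhere: Mrpl15 with quantile normalization (0.026), MaR1 rats only (0.0048), without the Myl7-rich hearts (0.14) and without the Upk1a-rich kidneys (0.041); Mrpl22 with voom (-0.0015) and vehicle rats only (-0.012); Mrpl2 with vehicle rats only (-0.080). Leaving out 1 rat gave 54 to 56 higher, 4 to 6 lower and medians of 0.54 to 0.64 for heart over kidney, with Mrpl15 at -0.079 to 0.041, Mrpl22 at -0.034 to 0.058 and Mrpl2 at -0.011 to 0.11. Mrpl10 lost its call without RB031 or RB034, and Mrps22 without RB030, RB032, RB036, RB037, RB038 or RB039. For MaR1, leaving out 1 rat moved the medians by less than that SD but turned their sign in some cases: they were -0.04 (without RB030) to 0.09 in kidney and -0.03 (without RB039) to 0.11 (without RB035) in heart, with 0 calls each time. With the animal as a replicate block the organ counts were again 55 and 5 and the interaction had 0 calls. The cause of these shifts was not tested beyond the scaling itself. Each tested gene had 241 or more fragments in every library. With 5 rats per group, treatment differences within the 95% intervals given are not excluded by these data.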
